A study of Bos taurus with 12 samples.

Results

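The Z-disc proteins described here are 10 genes of the bovine gene table, taken by symbol: ACTN2, MYOZ1, MYOZ2, MYOZ3, TCAP, LDB3, CSRP3, MYOT, MYPN and NRAP. All 10 were among the 18436 genes of the table, and all 10 carried the term Z disc in its annotation columns. Their m6A peaks were taken by gene name from the 2 peak lists, which gave 21 of 19739 peaks in GM and 21 of 20790 peaks in DM.

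The cells were primary myoblasts from the longissimus dorsi, the long back muscle, of newborn Qinchuan cattle. The GM group held myoblasts grown to 80% density in DMEM/F12 with 20% fetal bovine serum, and the DM group held myotubes after 4 days in DMEM/F12 with 2% horse serum, both media with penicillin/streptomycin. Each group had 3 input libraries of poly(A) RNA and 3 libraries of fragments bound by an antibody against N6-methyladenosine (m6A), 12 libraries in all, and the groups differed in medium, serum and time together, so these cannot be told apart. The study's methods describe isolation from 1 newborn animal and the labels give no number of animals, so p-values below measure the spread between these libraries and not between animals.

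The Z disc is the boundary of the sarcomere, the contractile unit of striated muscle, where actin filaments of opposite polarity are crosslinked by alpha-actinin. Around this crosslink sit small adaptors such as the myozenins, LIM and PDZ domain proteins, and the immunoglobulin domain proteins myotilin and myopalladin, which tie the disc to titin, to actin and to signalling enzymes such as calcineurin. These proteins are assembled into nascent myofibrils while myoblasts fuse into myotubes, and m6A is a mark on adenosines of mRNA that is read out here as enrichment of antibody-bound fragments over input.

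MYOZ2 was the member for which the study designed oligonucleotides, and they are shown because its transcript had the highest level of the 10 and was listed with an m6A peak in DM only. The first pair is for quantitative PCR of the mRNA and the second for PCR after m6A immunoprecipitation, each written 5′ to 3′. By PCR after immunoprecipitation the study reported more m6A on MYOZ2 mRNA in DM than in GM. Its read tracks placed MYOZ2 peaks close to the start codon in each GM and each DM replicate, unlike the pooled GM list used here. Their positions in the gene were not located, since no genome sequence was used.
qMYOZ2-F: aacagagttgccaccccatt
qMYOZ2-R: ccatcccttcggagtcctatt
MYOZ2-m6A-F: tcaccggaacgaattccact
MYOZ2-m6A-R: gcccatccttcagagagtcg

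Levels are given in FPKM, fragments scaled to transcript length and library size, which are per length and can be set side by side between genes. Tests were made with limma on log2(FPKM + 1) for the 12302 genes that averaged 0.5 FPKM or more over the 6 inputs, and a gene was called changed at an unadjusted p under 0.05 with a fold change over 1.5. Fold changes are on that log2 scale, which understates the change of low genes. Coordinates are those of the table, on ARS-UCD1.2. In bulk RNA, fewer cells of a type and less RNA per cell cannot be told apart.

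Of the 10 members, 9 passed the filter on low values and 7 of these rose from GM to DM, while none was called lower. The absence of a lower call turned on TCAP, which was called lower under both smaller pseudocounts, under the replicate block and in 2 of the 6 fits that leave out a library. The background was 4.90% of all tested genes called higher and 6.97% called lower. By limma's Benjamini-Hochberg adjusted p under 0.05 at any fold, the same count of members, 7 of 9, was higher and 0 lower, beside 16.1% and 26.7% of tested genes. At an unadjusted p under 0.05 the count of members lower in DM was also 0. Each of the 9 also had a GM mean above 0.5 FPKM, so none entered through its DM level alone. The median log2 fold change of the 9 was 1.43, beside -0.05 over all tested genes. In 9 of the 10 members every DM library lay above every GM library, a pattern seen in 21.1% of tested genes, and the exception was TCAP. The reverse pattern, every DM library below every GM library, was seen in 33.0% of tested genes and in 0 members. Summed FPKM of the 10 members ran from 76.9 to 90.2 in GM and from 266.6 to 318.6 in DM, which was 0.0179% to 0.0217% and 0.0682% to 0.0820% of all FPKM.

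**Figure D1:**
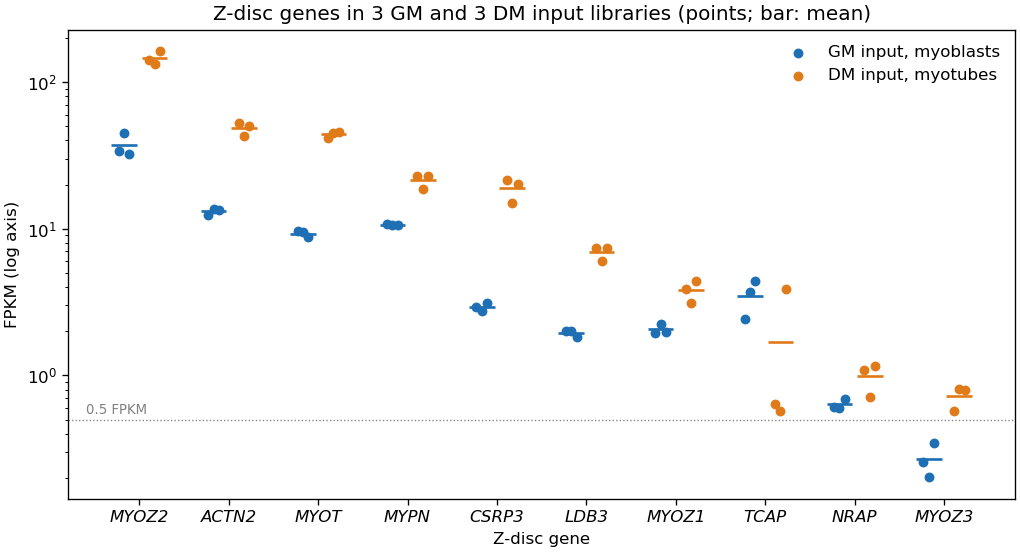
FPKM (log axis) of the 10 Z-disc genes in the 3 GM inputs (blue) and 3 DM inputs (orange), ordered by DM mean, with bars at the group means and a dotted line at the filter of 0.5 FPKM. The groups are separate in 9 genes, and in TCAP 1 DM library lies among the GM libraries.

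The actin crosslinker ACTN2, the sarcomeric alpha-actinin (ENSBTAG00000009696, chr28:9321730-9403358, plus strand), was at 12.4, 13.5 and 13.5 FPKM in GM and at 52.5, 43.1 and 50.2 FPKM in DM. Every DM library was above every GM library by a wide margin. ACTN2 rose by a log2 fold change of 1.81 ± 0.08 (SE, 3 against 3 libraries, limma, adjusted p = 1.2e-06).

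The other alpha-actinins had no such rise. ACTN1, a non-muscle form of adhesions and stress fibres, had a mean of 375.0 ± 8.34 FPKM in GM and 372.4 ± 3.42 FPKM in DM (SD, n = 3), a log2 difference of -0.01 whose sign turned to 0.11 under TPM and 0.05 under size factors. ACTN4, the second non-muscle form, was at 150.5 ± 5.44 and 131.8 ± 6.45 FPKM (log2 difference -0.19 ± 0.05, limma, adjusted p = 0.023), and ACTN3, the form of fast fibres, at 16.5 ± 0.90 and 14.0 ± 0.63 FPKM (-0.22 ± 0.06, adjusted p = 0.019). Neither of these differences reached 1.5-fold, so neither was called. Rescaled to TPM, the ACTN4 difference was -0.07 and the ACTN3 difference -0.11 (limma, unadjusted p = 0.27 and 0.12). Under size factors they were -0.13 and -0.16 (limma, unadjusted p = 0.063 and 0.032). ACTN2 was thus below ACTN3 in GM and above it in DM: their difference, ACTN2 minus ACTN3, was -0.31 in GM and 1.72 in DM on the log2 scale.

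Differences in response within the families were tested on the within-library difference of log2(FPKM + 1), for 9 pairs. With 3 against 3 libraries a two-sided exact permutation test cannot give a p below 0.1, so no pair could pass 0.05. ACTN2 changed more than ACTN1 by 1.82, more than ACTN3 by 2.03 and more than ACTN4 by 2.00, each with no overlap between the GM and DM values (exact permutation p = 0.1, 0.129 after Benjamini-Hochberg adjustment). The change of ACTN3 minus ACTN4 was -0.03, with overlapping values (exact permutation p = 0.8).

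The myozenins, also called calsarcins, bind alpha-actinin and calcineurin, and differed widely in level. MYOZ2, the form of slow and cardiac muscle (ENSBTAG00000002574, chr6:6097581-6135997, minus strand), was at 34.0, 45.2 and 32.5 FPKM in GM and at 140.2, 133.2 and 162.0 FPKM in DM. It was the highest member in both groups, above the next gene, ACTN2, in every library. MYOZ2 rose by 1.95 ± 0.13 (limma log2 fold change, adjusted p = 9.8e-06), from a mean of 37.2 ± 6.93 to 145.1 ± 15.0 FPKM.

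MYOZ1, a form of fast fibres (ENSBTAG00000033008, chr28:29615073-29627462, minus strand), was at 1.96, 2.24 and 1.98 FPKM in GM and at 3.88, 3.12 and 4.41 FPKM in DM. The groups did not overlap and MYOZ1 rose by 0.64 ± 0.11 (limma log2 fold change, adjusted p = 0.0016), the smallest of the 7 rises. Without DM replicate 3 the value was 0.55, under the 1.5-fold threshold. The first 1297 bases of its span lie within SYNPO2L on the same strand, itself at 20.3 FPKM in GM and 32.8 FPKM in DM, so reads there could be assigned to either gene.

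MYOZ3, another form of fast fibres (ENSBTAG00000025136, chr7:62030519-62047672, plus strand), was at 0.259, 0.202 and 0.345 FPKM in GM and at 0.575, 0.809 and 0.799 FPKM in DM. All 3 DM values lay above all 3 GM values, but the mean of the 6 was 0.498 FPKM, just under the filter, and MYOZ3 was not tested. NRAP, at a mean of 0.812 FPKM over the 6, was the tested member nearest above it.

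Among the pairs of myozenins, the change of MYOZ2 exceeded that of MYOZ3 by 1.5, and the change of MYOZ1 minus MYOZ2 was -1.30 (log2 scale, exact permutation p = 0.1 for each). The GM and DM values of these 2 differences did not overlap. With a pseudocount of 0.1 the difference between MYOZ2 and MYOZ3 was 0.80 (exact permutation p = 0.2). For MYOZ1 minus MYOZ3 the values overlapped (0.20, exact permutation p = 0.3), and with a pseudocount of 0.1 the sign turned, to -0.33.

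The calcineurin subunits of the partner list, shown for their binding to myozenins and chosen after their values were seen, gave smaller differences. PPP3CA, a catalytic subunit, was at 33.9 FPKM in GM and 29.1 FPKM in DM (log2 difference -0.21 ± 0.05, limma, adjusted p = 0.0069), and PPP3CB, the other measured catalytic subunit, at 12.7 and 10.3 FPKM (-0.27 ± 0.06, adjusted p = 0.0075). The regulatory subunit PPP3R1 was at 32.1 and 35.1 FPKM (0.13 ± 0.06, adjusted p = 0.10). None of the 3 reached 1.5-fold.

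LIM domain proteins act as adaptors at the Z disc. CSRP3, the muscle LIM protein (ENSBTAG00000011869, chr29:25744105-25764911, plus strand), was at 2.94, 2.73 and 3.10 FPKM in GM and at 21.4, 15.1 and 20.1 FPKM in DM. It had the largest rise of the members, 2.33 ± 0.12 (limma log2 fold change, adjusted p = 2.9e-06), and a ratio of DM to GM means of 6.46. In GM it stood level with TCAP, within the spread of the libraries. In DM it lay below MYPN in every library, though the ranges of these genes over the DM libraries overlapped.

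LDB3, also named ZASP or cypher, joins a PDZ domain to LIM domains and binds alpha-actinin (ENSBTAG00000018707, chr28:41325428-41384200, plus strand). It was at 2.01, 2.00 and 1.83 FPKM in GM and at 7.39, 6.01 and 7.45 FPKM in DM. The groups did not overlap, and LDB3 rose by 1.43 ± 0.09 (limma log2 fold change, adjusted p = 7.1e-06).

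MYOT, or myotilin, binds alpha-actinin, filamin C and actin (ENSBTAG00000007782, chr7:49334671-49357200, plus strand). It was at 9.59, 9.46 and 8.73 FPKM in GM and at 41.8, 45.2 and 45.5 FPKM in DM. Its DM libraries were the closest to each other of all members, the highest being 1.09 times the lowest, and MYOT rose by 2.14 ± 0.06 (limma log2 fold change, adjusted p = 2.1e-07).

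MYPN, or myopalladin, links nebulin and alpha-actinin (ENSBTAG00000017509, chr28:24593260-24679611, plus strand). It was at 10.8, 10.6 and 10.6 FPKM in GM and at 22.7, 18.8 and 23.0 FPKM in DM. MYPN lay above MYOT in every GM library and below it in every DM library. It rose by 0.95 ± 0.08 (limma log2 fold change, adjusted p = 4.4e-05).

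TCAP, or telethonin, caps the end of titin at the Z disc (ENSBTAG00000011730, chr19:40041901-40043107, plus strand). It was at 2.41, 3.71 and 4.37 FPKM in GM and at 0.640, 0.570 and 3.88 FPKM in DM. DM replicates 1 and 2 lay below every GM library, and DM replicate 3 lay within the GM range. The log2 difference was -0.93 ± 0.41 (limma, adjusted p = 0.10) and TCAP was not called. Without DM replicate 3 it was -1.46 and without GM replicate 1 it was -1.11, both called lower. With a pseudocount of 0.1 or 0.5 it was -1.48 or -1.16 and called lower, as was the -0.93 with the replicate number as a block. The whole TCAP span, 1207 bases, lies within the span of STARD3 on the same strand, so the division of reads between these genes is uncertain. STARD3 itself was at 4.53, 4.16 and 4.58 FPKM in GM and at 4.73, 4.49 and 3.91 FPKM in DM, its lowest value being in DM replicate 3, and its part in the TCAP values was not tested.

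NRAP, the nebulin-related anchoring protein of nascent myofibrils and myotendinous junctions (ENSBTAG00000019327, chr26:34061695-34145490, minus strand), was at 0.609, 0.604 and 0.691 FPKM in GM and at 1.09, 0.718 and 1.16 FPKM in DM. All DM values lay above all GM values, the nearest being DM replicate 2 and GM replicate 3. The log2 difference of 0.28 ± 0.10 (limma, adjusted p = 0.063) was under 1.5-fold on the log2(FPKM + 1) scale, and NRAP was not called.

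**Figure D2:**
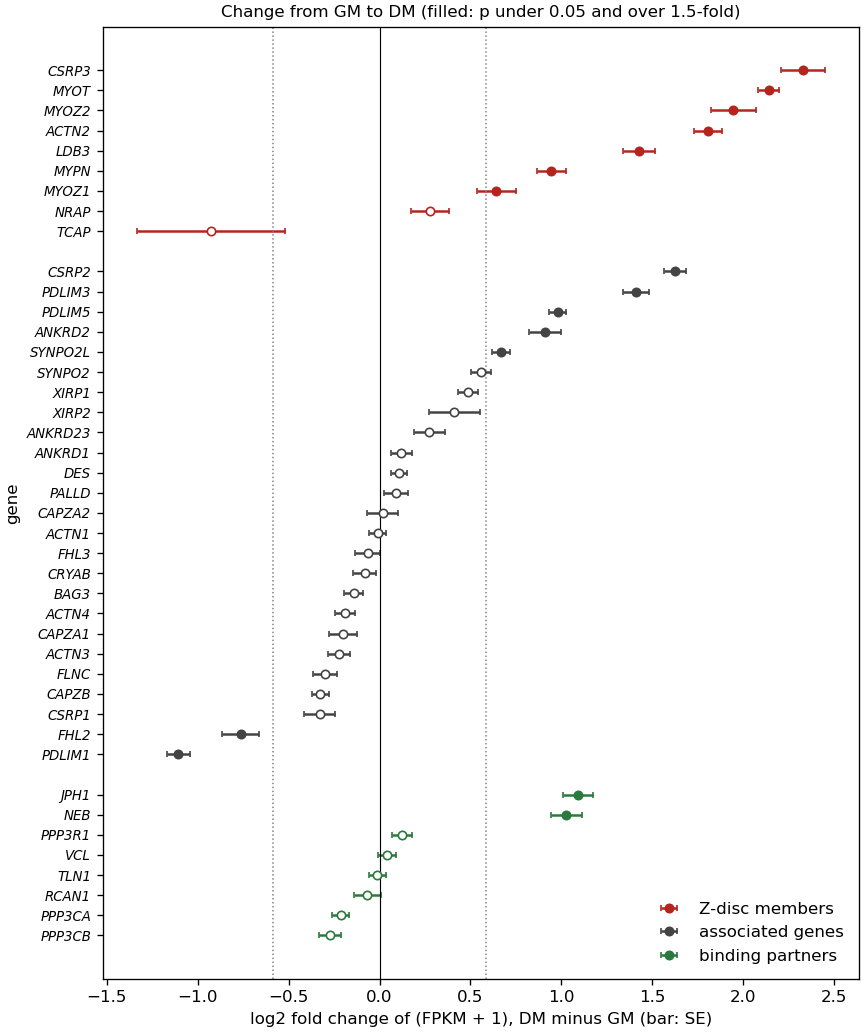
Log2 fold change of FPKM + 1, DM minus GM, with its SE, for the 9 tested Z-disc genes (red), 25 associated genes (grey) and 8 binding partners (green). Filled points passed an unadjusted p of 0.05 and 1.5-fold (dotted lines), and 7 of the 9 members but 7 of the 25 associated genes are filled.

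In order of level, the GM means ran MYOZ2, ACTN2, MYPN, MYOT, TCAP, CSRP3, MYOZ1, LDB3, NRAP and MYOZ3. Neighbours whose libraries overlapped were TCAP with CSRP3 and MYOZ1 with LDB3. In DM the order was MYOZ2, ACTN2, MYOT, MYPN, CSRP3, LDB3, MYOZ1, TCAP, NRAP and MYOZ3. There the overlapping neighbours were ACTN2 with MYOT, MYPN with CSRP3, and each neighbouring pair from MYOZ1 downward.

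DM replicate 2 had the lowest DM value in 8 of the 10 members, MYOT and MYOZ3 excepted. Over all tested genes DM replicate 2 was the lowest DM library in 42.6%. Even so, in each of the 9 combinations of 1 GM and 1 DM library, 9 or 10 of the 10 members were higher in DM.

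**Figure D3:**
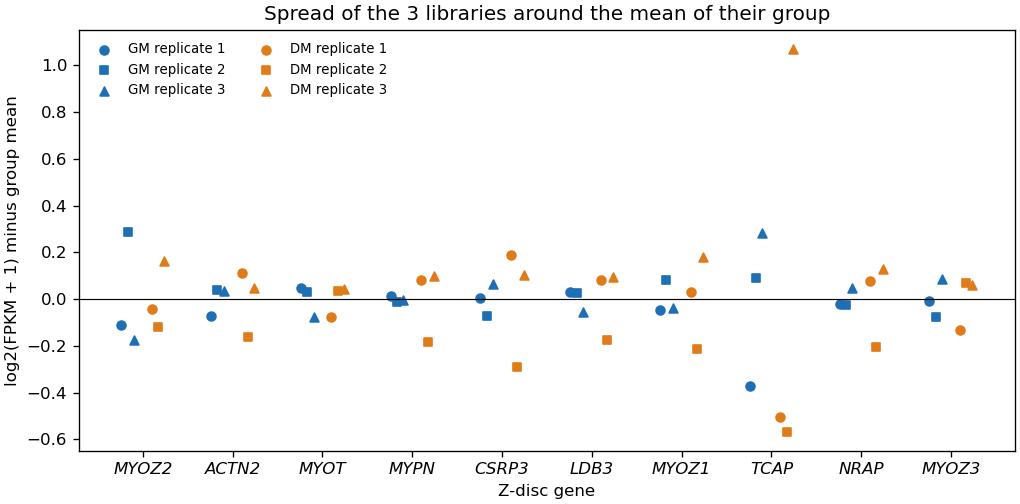
Log2(FPKM + 1) of each library minus the mean of its group for the 10 Z-disc genes, with GM in blue, DM in orange and a marker shape for each replicate number. DM replicate 2 (squares) is lowest in 8 genes, and TCAP in DM replicate 3 stands 1.07 above its group mean.

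Of 28 further genes of Z-disc associated proteins, 25 were in the table and all 25 were tested: 5 rose, 2 fell and 18 were not called, with a median log2 fold change of 0.02. Of 11 binding partners, 9 were in the table, 8 were tested and 2 rose, with a median of 0.01. Over all tested genes 4.90% were called higher and 6.97% lower. By limma's adjusted p under 0.05 at any fold, 9 of the 25 associated genes were higher and 7 lower. For the 8 partners these counts were 2 and 2, beside 16.1% and 26.7% of tested genes. TTN, which encodes titin, was not analysed here.

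CSRP2, a LIM protein close to CSRP3, rose from 14.3 ± 0.91 to 46.3 ± 0.98 FPKM (limma log2 fold change 1.62 ± 0.06, adjusted p = 5.0e-07). PDLIM3 and PDLIM5, PDZ and LIM proteins of the family of LDB3, rose by 1.41 ± 0.07 and 0.98 ± 0.05, to 51.6 and 77.5 FPKM in DM. PDLIM1, of the same family, fell from 70.0 ± 1.09 to 32.0 ± 2.68 FPKM (-1.11 ± 0.06, adjusted p = 5.3e-06), so members of 1 family were called in both directions. FHL2, a LIM-only protein, also fell, from 70.5 ± 9.87 to 40.9 ± 3.37 FPKM (-0.76 ± 0.10, limma, adjusted p = 0.00054).

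ANKRD2, an ankyrin repeat protein of the stretch response, rose from 5.77 to 11.8 FPKM (limma log2 fold change 0.91 ± 0.09, adjusted p = 9.2e-05). The fifth associated gene to rise was SYNPO2L, an actin-binding Z-disc protein named outside the rule of the 6 largest rises, at 0.67 ± 0.05. Among the partners, NEB, the giant ruler protein nebulin of the thin filament, rose from 19.7 ± 0.82 to 41.3 ± 4.77 FPKM (1.03 ± 0.08, limma, adjusted p = 3.7e-05). JPH1, a junctophilin that joins transverse tubules to the sarcoplasmic reticulum, rose from 1.53 to 4.39 FPKM (1.09 ± 0.08).

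The pattern most like the mean of the 10 members over the 6 inputs was that of NEB, at a Euclidean distance of 0.13 on the centred log2 scale. It was followed by ENSBTAG00000053911, a gene without a symbol at 735.4 FPKM in GM and 1567 FPKM in DM (distance 0.16), ASB5 (0.17), ENSBTAG00000050644 (0.20) and PRICKLE2 (0.21). These distances rest on 6 libraries that share the contrast, so they describe a rise of like size and little more. By position, 4 of the 10 members (ACTN2, MYOZ1, LDB3 and MYPN) lie on chromosome 28, which holds 268 genes or 1.45% of the table. Of its tested genes other than these 4, 10 of 184, or 5.43%, were called higher, near the 4.90% over all tested genes.

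Muscle markers were present in both groups. The 7 myogenic markers summed to 585.9 to 613.4 FPKM in GM and 1010 to 1034 FPKM in DM, a sum carried by embryonic myosin MYH3 at 273.0 and 659.3 FPKM. MYH3 and CKM rose, while PAX7, MYF5 and MYOD1, which mark satellite cells and myoblasts, fell by 0.97, 1.97 and 1.28 (limma log2 fold change). MYOG, a regulator of differentiation, was not called at 1.5-fold and was already at 190.4 to 206.9 FPKM in GM. Every DM library of MYOG lay above every GM library, with a log2 difference of 0.31 ± 0.06 (limma, adjusted p = 0.0046). The 8 fibroblast markers summed to 16068 to 16228 FPKM in GM and 16917 to 18006 FPKM in DM, with 0 of 8 called by limma at 1.5-fold and 3 of 8 higher at an adjusted p under 0.05. The 5 smooth muscle markers summed to 3086 to 3574 FPKM in GM and 2538 to 2713 FPKM in DM. By limma, 1 of 4 tested was called lower at 1.5-fold and 4 of 4 were lower at an adjusted p under 0.05. ACTA2 carried most of that sum, at means of 2241 FPKM in GM and 1713 FPKM in DM. MYH11 was near 0, at 0.282 and 0.529 FPKM, and was not tested. Every DM value of MYH11 lay above every GM value. Adipocyte markers summed to at most 2.75 FPKM, endothelial to at most 0.444 FPKM, with CDH5 at 0 in 3 libraries, and immune markers to at most 2.01 FPKM. Their part in the members' changes was not tested.

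The m6A peaks were called on the pooled libraries of each group, so a peak has 1 value per group and neither an error nor a test. Fold enrichment is the ratio of antibody-bound to input signal in the peak. Of the 10 members, 7 had a peak in GM and all 10 had one in DM, beside 57.0% and 63.3% of the genes of the table and 70.9% and 78.7% of tested genes. MYOZ2, CSRP3 and TCAP were listed with a peak in DM only, as were 10.1% of tested genes and 10.3% of the genes called higher in DM. Detection of a peak also moves with the level of the transcript. The DM mean was 3.90 times the GM mean for MYOZ2, 6.46 times for CSRP3 and 0.485 times for TCAP. The part of that level was not tested. The TCAP span also lay under GM peaks that the list names for STARD3.

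Enrichment varied widely among the members' peaks, from 1.42 to 21.8 in GM and from 1.11 to 11.7 in DM. The median over their 21 peaks was 2.38 in GM and 2.54 in DM, beside 3.27 and 3.38 over all peaks, and 13 of 21 and 15 of 21 lay below the list's median. No peak of the other list overlapped 6 of 21 GM and 8 of 21 DM peaks, beside 14.7% and 28.7% of all peaks. Of these 6 GM peaks, 4 were NRAP peaks that also missed a false discovery rate of 0.05, and 2 were ACTN2 peaks. A false discovery rate under 0.05 was met by 17 of 21 GM and 20 of 21 DM peaks, beside 90.3% and 88.8% of all peaks. With an enrichment of at least 2 required, 15 GM peaks in 7 members and 13 DM peaks in 6 members were left, so the larger number of members in DM turned round. MYOZ2, CSRP3 and TCAP then had no peak named for them in either list, and ACTN2 had none in DM. Of the GM peaks 5 were annotated to a 3′ UTR, 5 to a 5′ UTR and 11 to other exons, and of the DM peaks 7, 5 and 9. The 3′ UTR share was 23.8% in GM and 33.3% in DM, beside 42.6% and 45.3% of all peaks. These shares rest on few genes: the GM peaks in a 3′ UTR all belonged to MYOZ3 and LDB3, and NRAP alone held 5 of the 21 GM peaks. A peak of several exon blocks has 1 annotation, such as the MYOT peak in GM, a 5′ UTR peak that ran to 12.7 kb from the start of the gene.

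**Figure D4:**
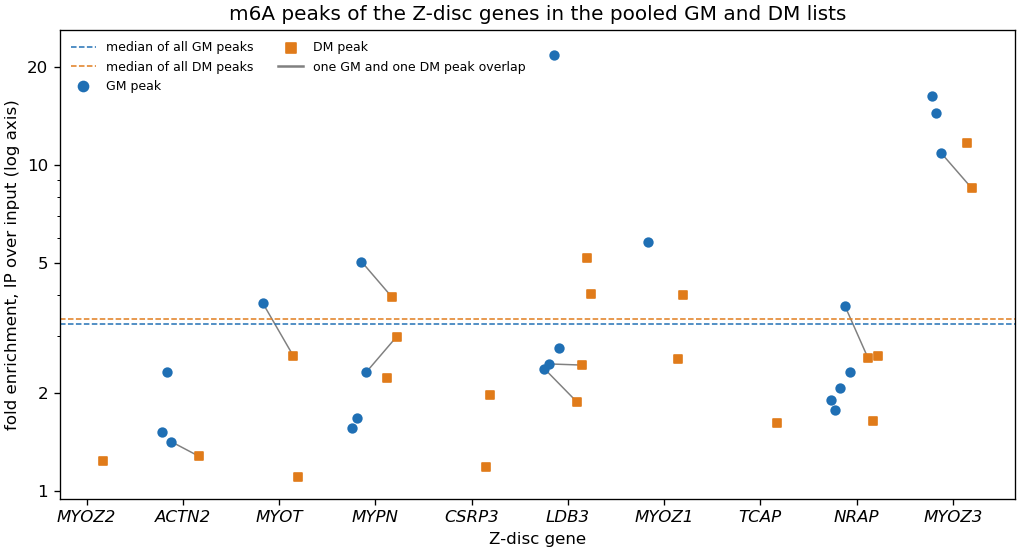
Fold enrichment (log axis) of each peak named for a Z-disc gene in the GM list (blue circles) and the DM list (orange squares), with dashed lines at the list medians of 3.27 and 3.38. Grey lines join peaks that overlap one to one, and MYOZ3 is the one gene with every peak above both medians.

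Peaks of the lists overlapped one to one in 9 cases, and in 0 of them did the ratio of enrichments pass 1.5 in either direction. Over all 10239 such pairs 25.0% did, 14.2% with more enrichment in DM and 10.8% with less. After centring on the median log2 ratio of all pairs, 0.07, 3 of the 9 passed 1.5 lower in DM (MYOT, TCAP and NRAP). At any size of difference the enrichment was lower in DM in 8 of the 9, beside 42.9% of all pairs, and the 8 include an LDB3 pair at 2.46 and 2.44. The steepest of those named for a member in both lists were MYOT, at 3.78 in GM and 2.61 in DM, and NRAP, at 3.70 and 2.56. The single pair that was higher in DM lay near the 3′ end of MYPN, at 2.32 and 2.98. The TCAP pair, at 2.40 and 1.62, shared 1 base and its GM peak is named for STARD3. Overlaps of 1 DM peak with 2 GM peaks were left out of the 9. Among them enrichment was higher in GM for MYOZ1 (5.80 against 3.99), MYOZ3 (16.3 and 14.5 against 11.7) and an LDB3 peak (21.8 against 5.18). It was lower in GM for MYPN (1.56 and 1.68 against 2.23) and for another LDB3 peak (2.76 against the same 5.18).

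ACTN2 had weak peaks. In GM there were 3, at 1.52, 2.33 and 1.42, and in DM 1, at 1.28 over 479 exon bases between chr28:9376078-9382592, which 3.18% of the DM list fell below. The GM peaks annotated to the 5′ UTR, at 3.11 and 33.4 kb from the start of the gene, had no DM peak over them. For the member with the second highest level, enrichment was thus among the lowest.

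MYOZ2 had 1 DM peak of 3 exon blocks and 269 bases, chr6:6119533-6135997, annotated to the 5′ UTR. Its enrichment was 1.24 (log10 p of -12.6 in the list), and 2.16% of the DM list lay below it. The p-value of a peak follows the number of reads as well as the enrichment, and MYOZ2 had the most RNA of the members.

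MYOZ3, with the least RNA, had high enrichment ratios. Its 3 GM peaks, all in the 3′ UTR, had enrichments of 16.3, 14.5 and 10.9, above 93.2% to 97.6% of the GM list, and its 2 DM peaks 11.7 and 8.52. Their log10 p in the lists was -3.85, -10.2 and -4.18 in GM and -20.9 and -2.36 in DM. With MYOZ3 at 0.202 to 0.345 FPKM in the GM inputs, the GM ratios rest on little input RNA. The DM peak chr7:62045367-62046505, of 1139 bases, covered the place of 2 GM peaks of 270 and 420 bases. The ratio at the last peak, from 10.9 to 8.52, was within 1.5-fold.

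The main MYOZ1 peak had an enrichment of 5.80 in GM and 3.99 in DM, with a log10 p of -445 and -356. It spans chr28:29626854-29632263 in GM and runs on to 29634506 in DM, and of its 2213 and 2781 exon bases only 609 lie within MYOZ1. All of them lie within SYNPO2L, on the same strand, so the peak cannot be given to MYOZ1 alone. A second peak, in DM only, covered the last 150 bases of the gene, chr28:29615073-29615222, in the 3′ UTR, at an enrichment of 2.54.

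CSRP3 had 2 DM peaks and none in GM. The one at the 3′ end, chr29:25764705-25764911, covered the last 207 bases of the gene at an enrichment of 1.97 (log10 p of -13.6), and the one in the 5′ UTR had 1.19.

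LDB3 had 4 peaks in each list and the highest enrichment of any member peak, 21.8 in GM over 270 bases at chr28:41355402-41355671, annotated to a 3′ UTR. The log10 p of that peak was -5.7, and that of the wider DM peak over it was -10.7. In DM this place was part of a wider peak, chr28:41355193-41370590, of 808 exon bases and an enrichment of 5.18, which also took in the GM peak beside it at 2.76. At the 3′ end of the gene, chr28:41373151-41383064, DM alone had a peak of 1108 exon bases with an enrichment of 4.04 (log10 p of -100), of which 1 block held 951 bases. LDB3 RNA was 3.57 times as high in DM, and the part of that level in the added peak was not tested. The other peaks stood at 2.38 and 2.46 in GM and at 1.88 and 2.44 in DM.

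MYPN had its strongest peak over 6 exon blocks in the middle of the gene, from 46.1 to 63.6 kb from its start, at 5.07 over 1194 bases in GM and 3.95 over 1284 bases in DM. In its second exon, 2 GM peaks of 90 and 120 bases, at 1.56 and 1.68, lay under 1 DM peak of 717 bases at 2.23. The blocks of the middle peak kept their place: all 1194 GM bases were within the DM peak.

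MYOT had its main peak in the 5′ part of the gene, of 840 bases in GM and 989 in DM, and a DM peak of 60 bases in exon 8 at 1.11, the lowest enrichment of the 42. NRAP had 5 peaks in GM, at 1.78 to 3.70, of which 4 missed a false discovery rate of 0.05, and 3 in DM, at 1.64 to 2.60, of which 1 missed it.

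TCAP was named for 1 peak, in DM, chr19:40041879-40042119, in the 5′ UTR at an enrichment of 1.62 (log10 p of -2.64). Its body, however, lay under peaks named for STARD3 with much higher enrichments, 17.3 and 17.5 in GM and 20.2 and 20.7 in DM. Of these peaks 809 and 712 bases in GM and 689 and 949 bases in DM were within TCAP. Since the STARD3 span contains TCAP, the lists cannot tell which transcript carried them.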

How the data were processed

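The authors trimmed the strand-specific reads, aligned them with HISAT2 to ARS-UCD1.2 and deposited FPKM of 6 input libraries, made with StringTie, for 18436 genes on 29 autosomes. The trimming tool differs between the sources (cutadapt and fastp in the submitters' processing notes, Trimmomatic in the study's methods). The m6A lists were made by the authors with exomePeak on pooled libraries, with ChIPseeker annotation. Their deposited fold enrichment is a linear ratio of IP over input. The deposited p-value is unadjusted, the deposited score repeats it, and deposited log10 columns hold its logarithm and that of the false discovery rate, all as the authors' exomePeak gave them. FPKM carry no read depth, so precision is the spread of 3 libraries per group. The libraries' FPKM sums were between 415740 and 434458 for GM and between 386436 and 390827 for DM.

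For tests, limma 3.58.1 (R 4.3.3) was fitted to log2(FPKM + 1), two-sided and with a variance trend, over the 12302 genes averaging 0.5 FPKM or more. Calls needed p under 0.05 and over 1.5-fold, as in the study's methods, and p-values were adjusted by Benjamini-Hochberg across these genes. The fit was tested on simulated data in which only genes with a GM level well above the filter were changed. It therefore does not cover members low in GM, which were MYOZ1, TCAP, LDB3, CSRP3 and NRAP. Peaks were joined by at least 1 shared exon base on the same strand using Python 3.11.15, numpy 2.4.6, pandas 2.3.3 and, for exact permutation tests, scipy 1.17.1. Figures were made in matplotlib 3.10.9. All members were named, with, from the associated and partner lists, ACTN1, ACTN3, ACTN4, TTN and NEB, the 6 largest called rises and falls, and the 5 genes most like the members' mean profile. Members and lists were chosen with earlier results of these data known. The IP libraries entered only through the peak lists. Motifs and primer positions were not analysed, since no genome sequence was used.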

Additional observations from a re-analysis of the deposited data

How the results depend on the processing

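Alternatives covered the pseudocount, the FPKM filter, TPM, size factors, a replicate block, the variance trend, the call thresholds, leaving out single libraries, stricter sets of peaks, the overlap needed and centred ratios. Of 154 values for the members' own changes, 145 kept their direction and side of the threshold. The exceptions were TCAP, called lower at -1.48 with a pseudocount of 0.1, -1.16 with 0.5, -1.11 without GM replicate 1 and -1.46 without DM replicate 3, but not called without any other library (all 6 from -1.46 to -0.64); MYOZ1, not called at 0.64 when 2-fold was required and at 0.55 without DM replicate 3, but called without any other library (all 6 from 0.55 to 0.75); MYPN, not called at 0.95 when 2-fold was required; and MYOZ3, called at 1.17 with no filter and a pseudocount of 0.1 together, an alternative chosen after seeing the data. The count of members called lower was thus 1 under both pseudocounts and 0 to 1 with a library left out, and that called higher 6 to 7. At 2-fold, 2 associated genes were called higher and 1 lower.

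Same-numbered GM and DM libraries did not deviate together over the tested genes (r = -0.08, -0.12 and -0.21). These correlations cannot settle whether the numbers pair the libraries, and the labels do not say. With the replicate block, TCAP at -0.93 was called, which made 1 member called lower, and no other member's call moved. ACTN1 was 0.11 under TPM, 0.054 under size factors and 0.0082 without GM replicate 3, the upper end of a range from -0.020 with a library left out. The change of ACTN3 minus ACTN4 ran from -0.10 to 0.03 with a library left out, 0.0023 without GM replicate 3 and 0.026 without DM replicate 2, and that of MYOZ1 minus MYOZ3 was -0.33 with a pseudocount of 0.1. TPM moved the median of all genes by 0.11 and the share of calls that were higher from 41.3% to 55.1%. Of the members' peaks, 15 in GM (7 members) and 13 in DM (6 members) had an enrichment of 2 or more. After centring on the median of all pairs, 3 pairs passed 1.5-fold lower in DM, MYOT at -0.61, TCAP at -0.64 and NRAP at -0.60. Taken by gene span instead of name, also chosen after seeing the data, the members held 24 peaks in each list. The causes of these changes were not tested. The depth behind a peak or an FPKM value is not in the files, which limits what can be said of MYOZ3, NRAP and TCAP.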
